A study of Mus musculus with 4 samples.

Results

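The levels of 10 genes that set the pace of G1, the phase in which a cell decides whether to copy its DNA, were followed in single mouse thymic epithelial cells. The genes are the D-type cyclins Ccnd1, Ccnd2 and Ccnd3, the E-type cyclins Ccne1 and Ccne2, the CDK inhibitors Cdkn1a (p21), Cdkn1b (p27), Cdkn1c (p57) and Cdkn2a (p16 and p19ARF), and the transcription factor Myc. They were chosen by function and matched by symbol. All 10 were found among the 31053 genes of the deposited matrices, and all were among the 23568 genes seen in more than 5 cells. The series holds 4 libraries of droplet-based single-cell RNA-seq from EPCAM+ CD45- TER119- thymic cells of C57BL/6 mice at 6 weeks of age, each a pool of 3 mice. WT and Cd40-/- mice received 5 mg/kg of a RANKL-neutralizing antibody (RANKL-Ab) or control IgG (Control) at 4 weeks of age, 2 weeks before the thymus was taken. The libraries of WT mice are WT-Control and WT-RANKL-Ab, and those of knockout mice Cd40-/- Control as well as Cd40-/- RANKL-Ab. Where 4 values follow each other they are in this order, 3 values leave out the last library and 2 values are those of the Control libraries, unless other libraries are named. The WT mice were purchased females, and the sex of the Cd40-/- mice is not given in the sources used here. Cd40-/- mice lack the receptor CD40 in every cell, and the antibody acts on the whole animal, so neither is limited to the epithelium.

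D-type cyclins join CDK4 or CDK6 and E-type cyclins join CDK2, and these kinases inactivate the retinoblastoma protein so that E2F factors can switch on S-phase genes. Cdkn1a, Cdkn1b and Cdkn1c bind the CDK2 complexes and hold cells in G1 or out of the cycle, while the p16 product of Cdkn2a blocks CDK4 and CDK6 and its p19ARF product stabilises p53. Myc drives growth genes. Medullary thymic epithelial cells (mTECs) renew throughout life, with a dividing stage before the post-mitotic cells that express Aire, and RANK and CD40 are the receptors through which thymocytes and lymphoid cells drive that maturation.

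Unique molecular identifiers (UMIs) were summed over the cells of a class in a library and divided by all UMIs of those cells (CPM, counts per 1000000). With 1 library per condition there is no test between conditions: each CPM has an exact Poisson interval (95%) and each ratio an exact conditional binomial one, and both cover counting error only, not the spread between mice. Across the 4 libraries, 2082 to 10218 cells were kept, with 19153685 to 95277834 UMIs in all and medians of 6086 to 7621.5 UMIs per cell. Cells were put into classes by marker scores, so a class is a range of scores and not a type; between 1.83% and 23.2% of a class lay within 20% above its limit, with the most in the class of cells that had progenitor markers and high Ccl21a. Levels are given for classes with at least 50 cells in a library, which left 8 classes in Cd40-/- RANKL-Ab. That library held 4 to 7 cells each of the cycling, early Aire lineage-like and Aire+ mTEC-like classes, so these classes have values in at most 3 libraries. A level of a class does not tell fewer cells with the transcript from less transcript per cell. The deleted gene Cd40 was at 110 and 28.8 CPM in WT-Control and WT-RANKL-Ab and at 5.75 and 4.75 CPM in Cd40-/- Control and Cd40-/- RANKL-Ab. The Cd40-/- libraries shared 210 cell barcodes, 10.0% of the smaller library, against 0.858% to 1.44% for the other pairs. Of 205 shared barcodes kept in both, 180 had more than 20 times the UMIs in Cd40-/- RANKL-Ab. The 205 held 0.460% of the UMIs of Cd40-/- Control. In Cd40-/- RANKL-Ab they had a median of 24073 UMIs, where all its cells had one of 7531.5. Counts without them are given beside the results. Exons of Ccnd1, Ccnd2, Ccnd3, Ccne2, Cdkn1a and Cdkn1c overlap a gene on the other strand, and whether the counting used strand is not given in the sources used here.

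The E-type cyclin gene Ccne1 and the inhibitor gene Cdkn2a bear on E2F control, so their promoters are shown first. Promoter windows of 300 bases, from 250 before to 50 after a start site, were taken from RefSeq on GRCm38.p6 and were found for 5 of the 10 genes (Ccnd3, Ccne1, Cdkn1a, Cdkn1b and Cdkn2a). Capitals mark the E2F core TCCCGC on either strand (GCGGGA on the other), which 19.98% of 32851 promoters hold. The Ccne1 window at chr7:38107441-38107740, minus strand, holds 2 matches, at 47 and 7 bases before the start.
Ccne1: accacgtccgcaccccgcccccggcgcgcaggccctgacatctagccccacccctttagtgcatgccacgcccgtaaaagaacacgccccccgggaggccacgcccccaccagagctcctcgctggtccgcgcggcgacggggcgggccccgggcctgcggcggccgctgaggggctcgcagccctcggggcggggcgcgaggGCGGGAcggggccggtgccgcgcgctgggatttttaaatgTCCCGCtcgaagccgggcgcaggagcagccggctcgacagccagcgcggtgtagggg
Cdkn2a has 2 starts. The outer one, at chr4:89294570-89294869 on the minus strand, lies at the exon that p19ARF uses and holds 5 matches, at 236, 191, 168, 158 and 97 bases before the start. The inner one, at chr4:89282143-89282442 on the minus strand, lies at the exon that p16 uses and holds none.
Cdkn2a outer: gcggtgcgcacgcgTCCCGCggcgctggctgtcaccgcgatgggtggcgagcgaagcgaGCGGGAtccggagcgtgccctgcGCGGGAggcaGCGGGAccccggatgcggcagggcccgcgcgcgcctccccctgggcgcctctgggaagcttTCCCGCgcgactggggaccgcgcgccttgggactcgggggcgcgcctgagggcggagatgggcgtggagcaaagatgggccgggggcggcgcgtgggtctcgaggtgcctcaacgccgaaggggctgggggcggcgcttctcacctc
Cdkn2a inner: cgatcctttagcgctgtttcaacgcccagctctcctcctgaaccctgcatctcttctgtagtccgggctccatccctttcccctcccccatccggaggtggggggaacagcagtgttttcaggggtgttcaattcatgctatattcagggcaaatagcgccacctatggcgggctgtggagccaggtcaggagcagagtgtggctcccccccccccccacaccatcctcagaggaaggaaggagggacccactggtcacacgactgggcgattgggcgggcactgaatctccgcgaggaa
The windows of Ccnd3, Cdkn1a and Cdkn1b hold no match. None of the 5 genes holds the E-box CACGTG that Myc and its partners bind, which 7.15% of promoters hold. A match in these letters is a description and not a measured site.

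Ccnd2 (chr6:127125162-127152193, minus strand, GRCm38) was high in progenitor-like, early Aire lineage-like, cycling and Aire+ mTEC-like cells, in an order that differed between libraries. In progenitor-like cells, gated on markers of TEC progenitors, it was at 725, 962, 888 and 761 CPM, so every library was high. In cells with progenitor markers and high Ccl21a it was at 125, 199, 170 and 87.2 CPM. The CCL21+ mTEC-like cells, which make the chemokine that draws thymocytes into the medulla, divided into cells with high and with low Mgp and Gpx3. Ccnd2 was at 206, 134, 148 and 74.6 CPM in the high cells and at 445, 318, 373 and 109 CPM in the low cells. It was highest in early Aire lineage-like cells of WT-Control, at 1337 CPM (95% interval, 1295 to 1380), with 674 CPM in WT-RANKL-Ab and 1070 CPM in Cd40-/- Control. In cycling cells with low Ccl21a it had 1059 CPM in WT-Control against 1091 in Cd40-/- Control, and in cycling cells with high Ccl21a 669, 414 and 863 CPM in the 3 libraries that held them. Aire+ mTEC-like cells had 581, 752 and 508 CPM in the same 3, and in WT-RANKL-Ab they were above the early Aire lineage-like and the cycling Ccl21a-high cells. Cortical TEC-like (cTEC-like) cells were lower, at 132, 99.3, 139 and 172 CPM, as were tuft-like cells, chemosensory mimetic cells of the medulla, at 125, 45.4, 94.4 and 9.14 CPM.

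The differences of Ccnd2 between classes had the same sign in every library for the largest of them. On the log2 scale of CPM + 10, progenitor-like cells were above cTEC-like cells by 2.55 (SD 0.45, n = 4 libraries), above the Mgp/Gpx3-high cells by 2.55 (SD 0.59) and above the progenitor-marker Ccl21a-high cells by 2.49 (SD 0.34). The Mgp/Gpx3-low cells were above the high cells by 1.01 (SD 0.35) in 4 of 4 libraries. Tuft-like cells were below Aire+ mTEC-like cells by a mean log2 of -2.74 (SD 0.91) in 3 of 3. With 4 libraries an exact paired permutation test, two-sided, cannot go below p = 0.125 (adjusted p = 0.467 over 140 tests of all 10 genes). The differences are therefore given as the number of libraries with the same direction. Of the 140 gene and class pairs, 97 had 1 direction in every library. Pairs with fewer than 4 libraries meet this more easily. The share over all genes was not counted, so it is not known whether the number is particular to these 10 genes. The order of the classes differed at the top. In WT-Control early Aire lineage-like cells were the first and progenitor-like cells the third, and in WT-RANKL-Ab it was the reverse among the classes with at least 50 cells. Cycling Ccl21a-low cells numbered 48 in WT-RANKL-Ab and were not ranked there, so its order could differ with them. In Cd40-/- Control the intervals of the first pair, cycling Ccl21a-low and early Aire lineage-like cells, overlapped.

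**Figure D1:**
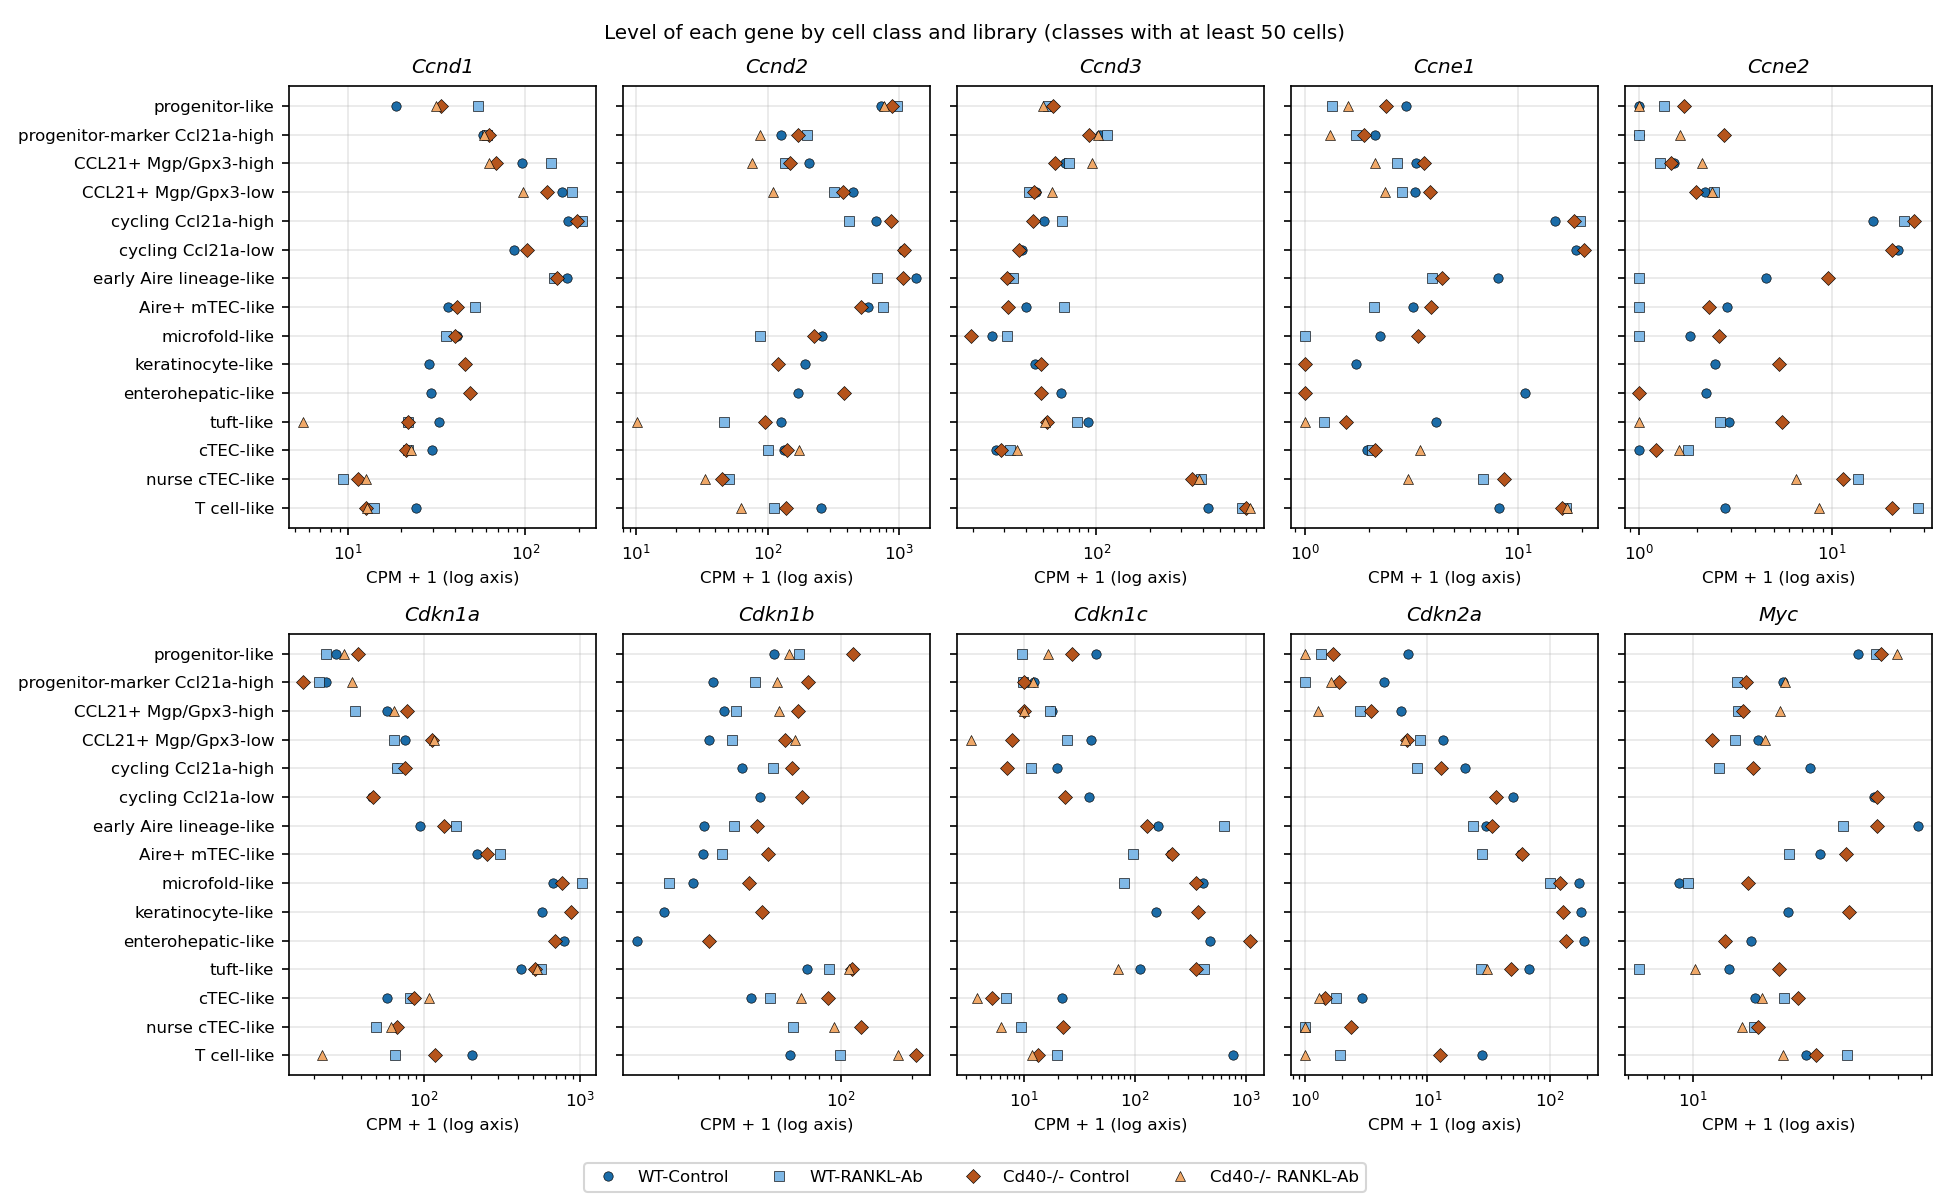
Level of each of the 10 genes as CPM + 1 on a log axis (x) in each cell class with at least 50 cells (y), 1 point per library. Ccnd2 is high in the progenitor-like, cycling, early Aire lineage-like and Aire+ mTEC-like rows, Cdkn1a and Cdkn2a peak in the mimetic rows (microfold-like to enterohepatic-like), and Ccnd3 peaks in the T cell-like and nurse cTEC-like rows.

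Between conditions, a gene was counted as past the fold where its ratio of CPM + 10 was 2-fold or more either way (log2 of 1), in genes with 50 UMIs or more over both libraries. With the antibody in WT mice 12 of 81 gene and class pairs of the 10 genes were past the fold (3 higher, 9 lower), where 3.21% of all pairs were (0.962% higher, 2.25% lower). In Cd40-/- Control against WT-Control it was 10 of 104 (8 higher, 2 lower), where 3.08% of all pairs were (1.68% higher, 1.4% lower). With the antibody in Cd40-/- mice it was 6 of 52, all lower, against 2.32% (0.731% higher, 1.59% lower), and for Cd40-/- RANKL-Ab against WT-RANKL-Ab 8 of 53, all lower, against 1.63% (0.861% higher, 0.774% lower). The comparisons share libraries. Of these pairs, 3, 2, 2 and 1 were of T cell-like cells, where 8.17% of all genes were lower past the fold with the antibody in WT mice and 11.99% were higher in Cd40-/- Control. Without the shared barcodes the counts were 12, 10, 5 and 8, and the comparisons of Cd40-/- RANKL-Ab kept 7 of 8 classes. With TMM scaling of the class sums the Cd40-/- Control pairs were 4 higher and 2 lower. Both Control levels lay above both RANKL-Ab levels for Ccnd2 in 4 of the 7 classes with at least 50 cells in every library, where 11.3% of all pairs did so.

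Ccnd2 was past the fold where both pathways were blocked. In Mgp/Gpx3-low CCL21+ mTEC-like cells, 236 UMIs gave 109 CPM (95% interval, 95.4 to 124) in Cd40-/- RANKL-Ab against 1550 UMIs and 373 CPM (355 to 392) in Cd40-/- Control, a log2 ratio of -1.78 (-1.98 to -1.58). Against WT-RANKL-Ab, at 318 CPM (308 to 327), the log2 ratio was -1.54 (-1.74 to -1.36). These comparisons share the Cd40-/- RANKL-Ab library and are not independent. Within that class, 2.19% and 1.05% of all genes tested were lower past the fold in the same comparisons. The antibody in WT mice gave a ratio of -0.49 (-0.55 to -0.43) in this class, and Cd40-/- Control was at 373 CPM against 445 CPM in WT-Control.

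Counted over classes, Ccnd2 was lower with the antibody in 8 of 11 classes of WT mice (median log2 -0.58 on the CPM + 10 scale) and in 7 of 8 classes of Cd40-/- mice (median -0.89). Of the genes tested in every class, 21.4% were lower in at least 8 of the 11 and 30.9% in at least 7 of the 8, and 2.83% and 0.772% had a median as low. Among WT classes the ratio was lowest in microfold-like cells, at -1.57 (-2.30 to -0.93; 20 UMIs in WT-RANKL-Ab), and in tuft-like cells, at -1.46 (-1.71 to -1.22). In early Aire lineage-like cells it was -0.99 (-1.11 to -0.87). It was above 0 in progenitor-like cells, at 0.41 (0.29 to 0.53), in progenitor-marker Ccl21a-high cells, at 0.67 (0.35 to 1.00), and in Aire+ mTEC-like cells, at 0.37 (0.31 to 0.44). In Cd40-/- mice the antibody ratio was -0.99 (-1.19 to -0.79) in Mgp/Gpx3-high cells and -0.96 (-1.23 to -0.69) in progenitor-marker Ccl21a-high cells. It was -3.37 (-5.26 to -1.99) in tuft-like cells, with 4 UMIs in Cd40-/- RANKL-Ab, and 0.30 in cTEC-like cells. Cd40-/- RANKL-Ab was also past the fold below WT-RANKL-Ab in progenitor-marker Ccl21a-high cells, at -1.19 (-1.44 to -0.94), and in tuft-like cells, at -2.31 (-4.20 to -0.93). In enterohepatic-like cells, mimetic cells with gut and liver genes, Ccnd2 was higher in Cd40-/- Control than in WT-Control, at 381 against 170 CPM and a ratio of 1.16 (0.824 to 1.5004). Without the shared barcodes the antibody ratio of the Cd40-/- mice was of like size, at -1.64 for the Mgp/Gpx3-low cells on the CPM + 10 scale.

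Ccnd1 (chr7:144929931-144939925, minus strand) was high in Mgp/Gpx3-low CCL21+ cells, in cycling cells with high Ccl21a and in early Aire lineage-like cells. The last were gated below the limit of the CCL21+ classes, so the gene was not confined to CCL21+ cells. It was at 160, 181, 132 and 96.4 CPM in Mgp/Gpx3-low cells and at 94.98, 139, 67.3 and 61.1 CPM in Mgp/Gpx3-high cells. Cycling cells with high Ccl21a held 173, 207 and 194 CPM and early Aire lineage-like cells 170, 143 and 149 CPM. Aire+ mTEC-like cells were far lower, at 35.7, 51.2 and 39.9 CPM, a difference from the early Aire lineage-like cells of 1.66 on the log2 scale (SD 0.33, 3 of 3 libraries). Mgp/Gpx3-low cells were above high cells by 0.63 (SD 0.22, 4 of 4), and progenitor-like cells were below the high cells by a mean log2 of -1.21 (SD 0.51, 4 of 4). Among cycling cells, the Ccl21a-low ones were below the Ccl21a-high ones by a mean log2 of -0.91 (SD 0.05, 2 of 2), whereas Ccnd2 was higher there by 0.50 (SD 0.23, 2 of 2).

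Ccnd1 and Ccnd2 went opposite ways with the antibody in CCL21+ cells of WT mice. In Mgp/Gpx3-high cells Ccnd1 had a log2 ratio of 0.55 (0.44 to 0.66) and Ccnd2 one of -0.62 (-0.71 to -0.52). In Mgp/Gpx3-low cells the values were 0.18 and -0.49. In progenitor-like cells Ccnd1 was past the fold, with 18 UMIs in WT-Control (17.7 CPM, 10.5 to 28.1) and 154 in WT-RANKL-Ab (52.7 CPM, 44.7 to 61.7), a log2 ratio of 1.57 (0.86 to 2.36). The other 2 libraries lay between, at 32.3 and 30.5 CPM. In Mgp/Gpx3-high cells Ccnd1 of Cd40-/- RANKL-Ab was below WT-RANKL-Ab by a log2 ratio of -1.18 (-1.39 to -0.98). The same comparison was past the fold in tuft-like cells on 2 against 90 UMIs, at -2.19 (-5.26 to -0.29). In the Mgp/Gpx3-high cells, though, Cd40-/- RANKL-Ab was close to Cd40-/- Control, as the levels above show.

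**Figure D2:**
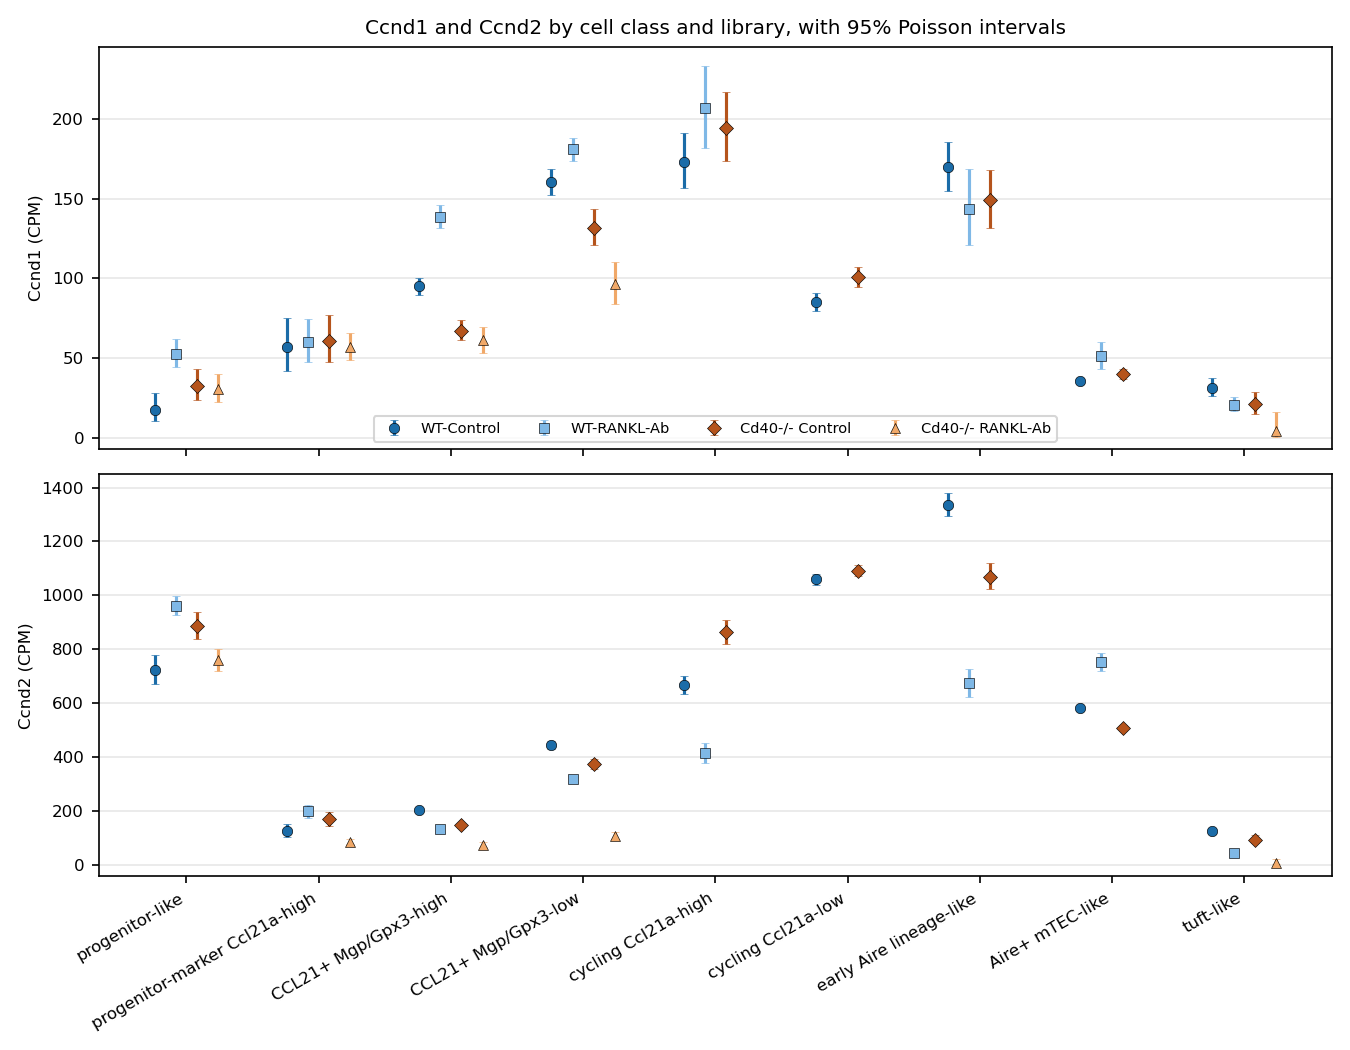
Ccnd1 (upper) and Ccnd2 (lower) in CPM by cell class, 1 point per library with its 95% Poisson interval for counting error. Ccnd2 is high in progenitor-like cells of every library and is at 445 CPM in WT-Control against 109 in Cd40-/- RANKL-Ab in the Mgp/Gpx3-low CCL21+ cells, while Ccnd1 of WT-RANKL-Ab lies above the other libraries in the Mgp/Gpx3-high cells.

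Ccnd3 (chr17:47505051-47599691, plus strand) was the cyclin of the cells that hold thymocyte RNA. It was at 428, 670, 702 and 741 CPM in T cell-like cells and at 389, 346 and 379 CPM in the nurse cTEC-like cells (cortical cells with thymocyte markers) of WT-RANKL-Ab and both Cd40-/- libraries, the 3 with at least 50 of them. In cTEC-like cells it was at 25.8, 31.2, 27.7 and 34.4 CPM. The 12 T cell markers used summed to 7410 to 8114 CPM in the nurse cTEC-like cells and to 9165 to 16391 CPM in the T cell-like ones, against 21.2 to 242 CPM in the other classes with at least 50 cells. The part of that RNA in the Ccnd3 of nurse cTEC-like cells was not tested. Within the CCL21+ cells Ccnd3 had the reverse order to Ccnd1 and Ccnd2: the Mgp/Gpx3-low cells were below the high cells by a mean log2 of -0.53 (SD 0.16, 4 of 4 libraries). Progenitor-like cells were below progenitor-marker Ccl21a-high cells by a mean log2 of -0.83 for Ccnd3 and of -0.73 for Ccnd1 (4 of 4 each), and above them by 2.49 for Ccnd2 (4 of 4). No Ccnd3 ratio between conditions was past the fold.

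Ccne1 (chr7:38097984-38107534, minus strand) and Ccne2 (chr4:11191351-11204779, plus strand) were low outside the cycling, T cell-like and nurse cTEC-like classes. Ccne1 was at 13.98, 18.6 and 17.4 CPM in cycling Ccl21a-high cells of WT-Control, WT-RANKL-Ab and Cd40-/- Control and at 17.7 and 19.5 CPM in cycling Ccl21a-low cells of WT-Control and Cd40-/- Control. Ccne2 was at 15.3, 22.6 and 25.8 CPM and at 21.0 and 19.5 CPM in the same classes. Cycling Ccl21a-high cells were above Mgp/Gpx3-low cells by 1.11 (SD 0.15) for Ccne1 and by 1.46 (SD 0.27) for Ccne2, in 3 of 3 libraries. T cell-like cells had 7.16, 15.8, 15.2 and 16.1 CPM of Ccne1 and 1.79, 27.0, 19.5 and 7.52 CPM of Ccne2, on 1 to 29 UMIs each, and nurse cTEC-like cells were above cTEC-like cells by 0.87 for Ccne2 (SD 0.29, 3 of 3). These genes peak at the G1/S boundary in cultured cells, and the marker gates allowed a look at this: cycling cells were divided by whether their S-phase score or their mitotic score led.

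The E-type cyclins and the D-type cyclins Ccnd1 and Ccnd2 were higher in the S-led than in the mitosis-led cells of every class and library measured. In cycling Ccl21a-low cells of WT-Control, 128 Ccne2 UMIs in S-led cells and 109 in mitosis-led cells gave a log2 ratio of 2.55 (2.17 to 2.93), and 96 against 104 Ccne1 UMIs gave 2.20 (1.78 to 2.61). In Cd40-/- Control the ratios were 2.02 and 1.504. The 3 Ccl21a-high values for Ccne1 lay between 1.02 and 1.40 and for Ccne2 between 0.55 and 2.11, with 11 to 26 UMIs a side, and 2 of the 3 Ccne1 intervals and 1 of the 3 Ccne2 intervals reached below 0. Ccnd1 had ratios of 0.49 to 1.26 and Ccnd2 of 0.29 to 0.72, all 10 with intervals above 0. The inhibitors mostly went the other way. Cdkn1b was lower in S-led cells in 5 of 5, from -1.38 to -0.26, and Cdkn1a in 4 of 5, from -1.86 to -0.55, with 0.19 in Ccl21a-low cells of Cd40-/- Control. Cdkn2a was lower in the S-led cells in 5 of 5, with no UMI against 20 in one of them. Its intervals reached above 0 in Ccl21a-high cells of WT-Control (to 0.028) and WT-RANKL-Ab (to 1.08). That of Cdkn1b did so in Ccl21a-low cells of WT-Control (to 0.11). Cdkn1c and Ccnd3 differed in sign between libraries, the latter from -0.36 to 0.91. The scores that divided the cells use other genes, but the cells come from the same libraries and S-led cells were the fewer (33 to 61 in the Ccl21a-high class).

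**Figure D3:**
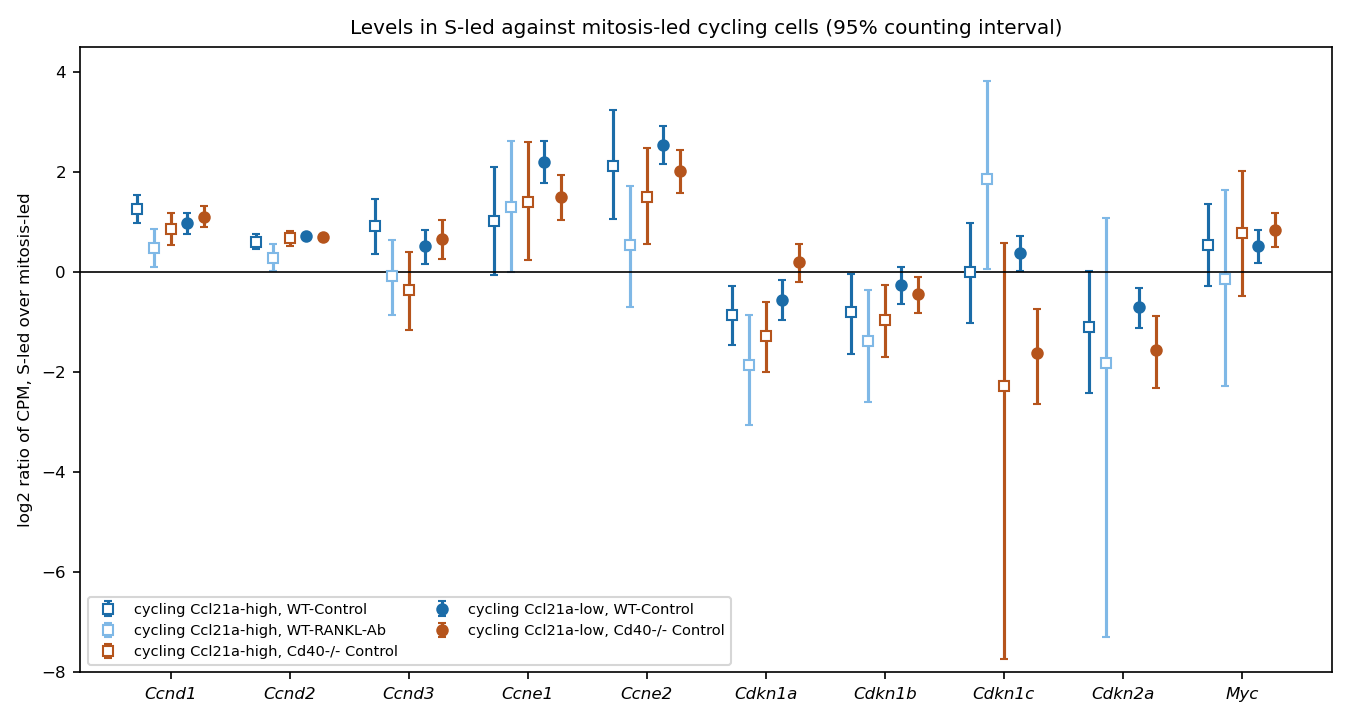
Log2 ratio of CPM in S-led over mitosis-led cycling cells (y) for each gene (x), with 95% counting intervals; open squares are Ccl21a-high and filled circles Ccl21a-low cells, coloured by library. Ccne1, Ccne2, Ccnd1 and Ccnd2 lie above 0 throughout and Cdkn1b below 0, and the 1 Cdkn2a value with no S-led UMI is not drawn.

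Cdkn1a (chr17:29090976-29100727, plus strand), a p53 target that is also switched on as cells leave the cycle, was low in CCL21+ cells and high in Aire+ and mimetic cells. It was at 57.2, 35.5, 77.1 and 63.7 CPM in Mgp/Gpx3-high cells and at 74.7, 63.3, 112 and 115 CPM in Mgp/Gpx3-low cells. In Aire+ mTEC-like cells it was at 217, 307 and 255 CPM, and in the mimetic classes, post-Aire cells that copy other tissues, it was higher still: microfold-like cells had 674, 1027 and 768 CPM and tuft-like cells 420, 563, 513 and 528 CPM. Ciliated-like cells of WT-Control had the highest level, 1142 CPM in 67 cells. Keratinocyte-like cells had 571 and 874 CPM, and enterohepatic-like cells 787 and 687 CPM, in WT-Control and Cd40-/- Control. Microfold-like cells were above Aire+ mTEC-like cells by 1.62 (SD 0.08) and tuft-like cells by 0.92 (SD 0.06), in 3 of 3 libraries each. Early Aire lineage-like cells were below them by a mean log2 of -0.96 (SD 0.14, 3 of 3), and cycling Ccl21a-low cells by -2.13 (2 of 2). Between conditions, the 3 Cdkn1a ratios past the fold were all of T cell-like cells (204, 65.1, 118 and 21.5 CPM). In that class the marker scores of WT-Control were unlike those of the other libraries.

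Cdkn2a (chr4:89274471-89294653, minus strand) was also high in microfold-like, keratinocyte-like and enterohepatic-like cells, at lower levels than Cdkn1a. The UMIs of Cdkn2a count both transcripts, since p16 and p19ARF share their 3' exons. Cdkn2a was at 170, 99.3 and 120 CPM in microfold-like cells, at 178 and 127 CPM in keratinocyte-like cells and at 189 and 133 CPM in enterohepatic-like cells. Aire+ mTEC-like cells had 57.5, 26.9 and 57.8 CPM and cycling Ccl21a-low cells 48.5 and 35.0 CPM. The latter lay less far below the former than for Cdkn1a. Tuft-like cells, at 66.0 and 26.4 CPM in WT-Control and WT-RANKL-Ab, were near the Aire+ mTEC-like cells, unlike for Cdkn1a. The cTEC-like cells had 1.91, 0.801, 0.458 and 0.307 CPM, and progenitor-like cells had 5.92, 0.342, 0.701 and 0 CPM. Microfold-like cells were above Aire+ mTEC-like cells by 1.31 (SD 0.33, 3 of 3), and cycling Ccl21a-low cells above cycling Ccl21a-high cells by 1.02 (SD 0.02, 2 of 2). With the antibody in WT mice Cdkn2a was lower in 11 of 11 classes (median log2 -0.62 on the CPM + 10 scale), and in tuft-like cells it was past the fold at -1.32 (-1.65 to -1.002; 66.0 and 26.4 CPM). In Aire+ mTEC-like cells the ratio was -1.10 (-1.45 to -0.76). Not every class of this gene reached 50 UMIs, and 5.75% of the genes that did so in every class were lower in all of them.

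Cdkn1b (chr6:134920401-134925513, plus strand), which holds back CDK2 in resting cells, was higher in Cd40-/- than in WT libraries in most classes. Progenitor-like cells had 50.3, 64.7, 112 and 58.6 CPM. Mgp/Gpx3-high cells had 30.4, 34.2, 64.3 and 53.01 CPM and Mgp/Gpx3-low cells 26.2, 33.0, 56.1 and 62.3 CPM, with both Cd40-/- libraries above both WT ones. Aire+ mTEC-like cells had 24.5, 29.8 and 47.6 CPM in the 3 libraries with such cells. The Cd40-/- Control library was above WT-Control in 14 of 14 classes (median log2 0.80 on the CPM + 10 scale), and 13 of the 14 intervals lay above 0. The log2 ratios of CPM were 1.15 (0.69 to 1.63) in progenitor-like, 1.08 (0.88 to 1.28) in Mgp/Gpx3-high, 0.96 (0.82 to 1.09) in Aire+ mTEC-like, 0.62 (0.45 to 0.79) in cycling Ccl21a-low and 1.11 (0.65 to 1.61) in cTEC-like cells. It was past the fold in progenitor-like cells, in progenitor-marker Ccl21a-high cells (1.37, 0.70 to 2.10), in keratinocyte-like cells (1.45, 0.61 to 2.31) and in T cell-like cells (1.81, 1.29 to 2.38). The T cell-like classes of the Control libraries differed in their marker scores. Not every class of Cdkn1b reached 50 UMIs in this comparison. Of the 2412 genes that did so in every class, 18.6% were higher in Cd40-/- Control in all of them. The median log2 ratio of all genes tested in a class, on the CPM + 10 scale, was 0.013 to 0.342.

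Cd40-/- RANKL-Ab was above WT-RANKL-Ab in 7 of 8 classes (median 0.44), where 16.8% of the genes tested in every class were higher in at least 7. This is a comparison that shares no library with the first. The ratio was 0.63 (0.37 to 0.89) in Mgp/Gpx3-high cells, 0.91 (0.62 to 1.197) in Mgp/Gpx3-low cells and 0.44 (0.15 to 0.73) in cTEC-like cells. In progenitor-like cells it was -0.14 (-0.51 to 0.22), with an interval that includes 0. Over the 7 classes with at least 50 cells in all 4 libraries, both Cd40-/- levels lay above both WT levels in 6, where 26.6% of all tested gene and class pairs did so. The exception was the progenitor-like class. Genes of the immediate early response, which dissociation can induce, were also higher: 19 of 127 and 21 of 74 of their gene and class pairs were higher past the fold in the 2 comparisons of Cd40-/- with WT libraries. Their median log2 ratio in progenitor-like cells was 1.25 and 1.11, where Cdkn1b had 1.15 and -0.14, and their part in the Cdkn1b values was not tested. Heat shock genes were higher in 6 of 69 and 4 of 40 pairs. Under TMM scaling of the class sums the Cd40-/- Control value stayed above WT-Control in every class.

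**Figure D4:**
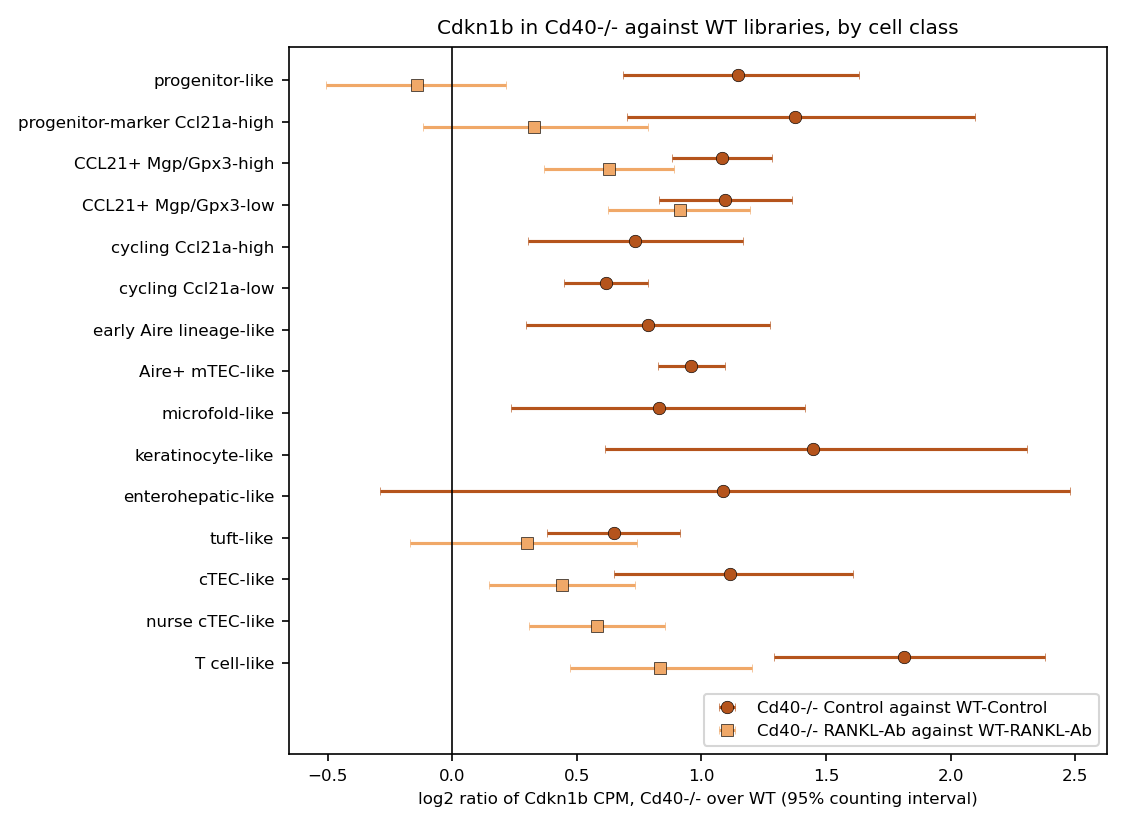
Log2 ratio of Cdkn1b CPM in Cd40-/- over WT libraries (x) by cell class (y), with 95% counting intervals; circles compare the Control libraries and squares the RANKL-Ab libraries. All 14 circles and 7 of 8 squares lie above 0.

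Cdkn1c (chr7:143458339-143461050, minus strand), an imprinted gene expressed from the maternal copy, was unevenly spread over cells. Cells with at least 20 Cdkn1c UMIs per 10000 UMIs numbered 191, 63, 154 and 0 in the 4 libraries, at most 1.87% of cells, and held 64.8%, 81.2% and 68.0% of all Cdkn1c UMIs in the first 3. In Aire+ mTEC-like cells, 97 of 3405 cells of WT-Control and 66 of 2015 of Cd40-/- Control were such cells. In tuft-like cells, 6 of 498, 17 of 635 and 8 of 281 cells of WT-Control, WT-RANKL-Ab and Cd40-/- Control held 185 of 454, 1300 of 1818 and 519 of 623 UMIs. The class levels were 109, 421, 352 and 68.5 CPM there, but the other tuft-like cells of the first 3 libraries had 65.3, 123 and 61.2 CPM. Early Aire lineage-like cells had 160, 630 and 127 CPM, and 52.5% of the UMIs behind the 630 CPM lay in 1 cell. Cdkn1c gave 6 of the 12 ratios past the fold with the antibody in WT mice. In 1 of them, the progenitor-like cells, a single cell held 86.4% of the 44 UMIs of WT-Control.

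Other Cdkn1c levels are given with and without the cells of at least 20 UMIs per 10000. Mgp/Gpx3-low cells had 358, 304, 28 and 5 UMIs (38.8, 23.4, 6.74 and 2.31 CPM), and the Cd40-/- Control ratio was -2.53 (-3.14 to -1.97). Leaving out the 3 high cells of each WT library gave 30.3 and 15.4 CPM there. With stricter gates the Cd40-/- Control ratio was -0.75 on the CPM + 10 scale, no longer past the fold. In Aire+ mTEC-like cells the levels were 209, 94.96 and 213 CPM, with a WT antibody ratio of -1.14 (-1.32 to -0.96). Without the high cells these were 73.6, 42.2 and 62.8 CPM. In microfold-like cells they were 409, 77.7 and 356 CPM, with 18 UMIs in WT-RANKL-Ab, and without the high cells 204, 77.7 and 221 CPM. Cd40-/- Control was above WT-Control past the fold in keratinocyte-like cells (153 and 368 CPM), enterohepatic-like cells (472 and 1085 CPM) and tuft-like cells. Without the high cells these were 94.5 and 165 CPM, 169 and 236 CPM, and 65.3 and 61.2 CPM, so the tuft-like difference was not seen in the other cells. Cd40-/- RANKL-Ab, which had none of the high cells, was below the libraries it was compared with in tuft-like cells, at -2.36 against Cd40-/- Control and -2.62 against WT-RANKL-Ab, and below Cd40-/- Control in nurse cTEC-like cells, at -2.05. In that class 1 cell of Cd40-/- Control held 79 of 122 UMIs, and without it the levels were 7.51 and 5.13 CPM. The WT-Control T cell-like value of 768 CPM came from 2 cells with 412 of 429 UMIs.

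**Figure D5:**
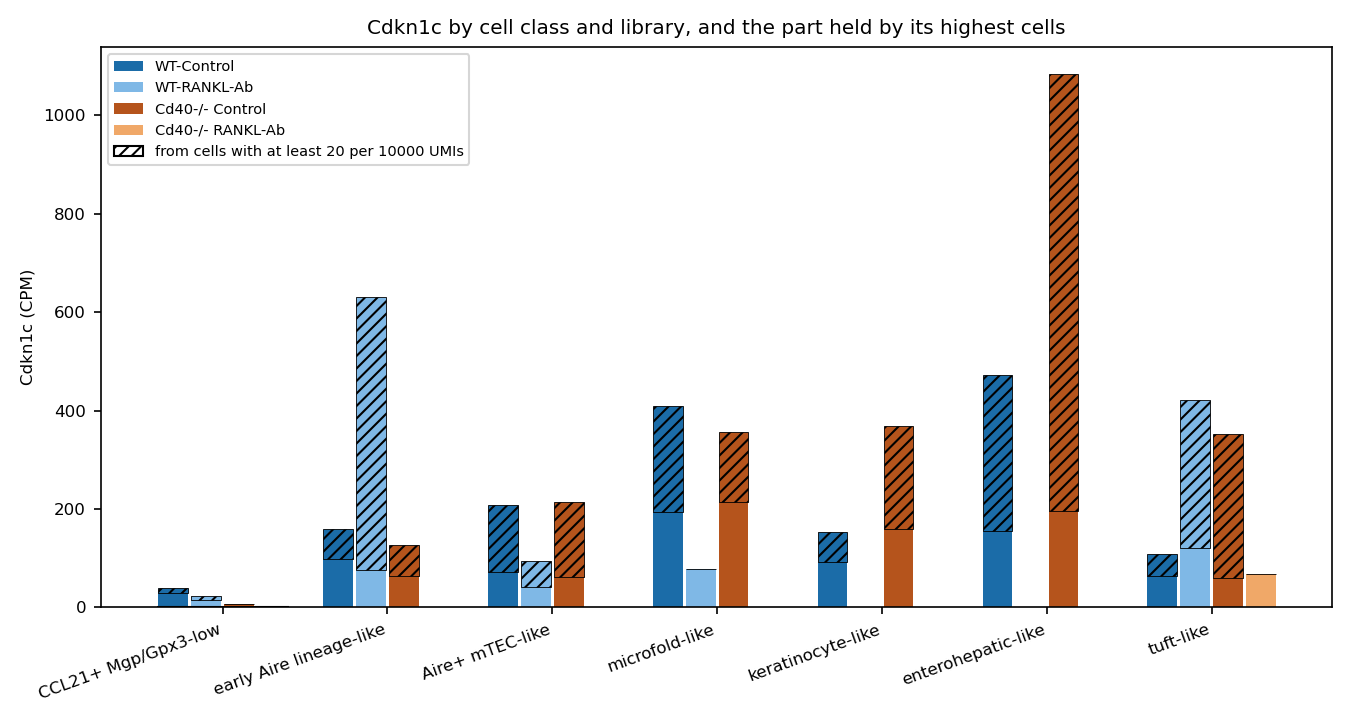
Cdkn1c in CPM (y) by cell class (x) and library; the hatched stretch of each bar is what cells with at least 20 Cdkn1c UMIs per 10000 held, and classes under 50 cells have no bar. The tallest bars in early Aire lineage-like cells and tuft-like cells of WT-RANKL-Ab, and in enterohepatic-like cells of Cd40-/- Control, are mostly hatched.

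Myc (chr15:61985391-61990374, plus strand) was most abundant in progenitor-like, cycling Ccl21a-low and early Aire lineage-like cells. Progenitor-like cells had 35.5, 41.1, 42.8 and 48.7 CPM, cycling Ccl21a-low cells 40.5 and 41.4 CPM, and early Aire lineage-like cells 57.6, 31.6 and 41.5 CPM. Mgp/Gpx3-high cells had 13.7, 13.2, 13.8 and 18.8 CPM and tuft-like cells 12.2, 5.55, 18.7 and 9.14 CPM. Progenitor-like cells were above the Mgp/Gpx3-high cells by 1.06 on the log2 scale (SD 0.10) and above the progenitor-marker Ccl21a-high cells by 0.97 (SD 0.24), in 4 of 4 libraries. Microfold-like cells were below Aire+ mTEC-like cells by a mean log2 of -0.83 (SD 0.16, 3 of 3) and tuft-like cells by -0.74 (SD 0.20). No Myc ratio between conditions was past the fold; in cycling Ccl21a-high cells the antibody ratio in WT mice was -1.10 and in Aire+ mTEC-like cells of Cd40-/- Control the ratio was 0.30 (0.15 to 0.45).

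Other genes of the same machinery were mostly within the fold. Of 18 genes for G1/S kinases, pocket proteins and E2F factors, 6 of 105 gene and class pairs were past the fold with the antibody in WT mice, all higher, and 5 of 138 in Cd40-/- Control, all higher; of the 11, 10 were in T cell-like cells. The remaining one, Fbxw7 of keratinocyte-like cells, a ubiquitin ligase subunit that marks cyclin E for degradation, was at 19.4 and 51.9 CPM in WT-Control and Cd40-/- Control. None of the 3 other CDK inhibitors (Cdkn2b, Cdkn2c and Cdkn2d) was past the fold in any comparison. Of the Myc partners and antagonists, 4 of 74 pairs were higher with the antibody in WT mice and 2 of 89 in Cd40-/- Control. With the antibody in Cd40-/- mice 2 of 55 were lower, where 1.59% of all pairs were. Mycl, a relative of Myc, was at 8.36 CPM in WT-Control and 32.5 in WT-RANKL-Ab in Mgp/Gpx3-high cells (log2 1.96, 1.65 to 2.28). In Mgp/Gpx3-low cells it was at 17.4 and 50.2 CPM (1.53, 1.28 to 1.79). Among Myc-responsive growth genes, 5 of 136 pairs were higher and 1 lower with the antibody in WT mice. Of p53 targets, 3 of 116 were higher with the antibody in WT mice, all of them Btg2, a growth-inhibiting gene that is also an early response gene, at 218 and 450 CPM in progenitor-like cells. In Cd40-/- Control 6 of 148 were higher (Btg2 in 5 classes and Trp53inp1 in T cell-like cells) and 2 lower (Phlda3 in enterohepatic-like and T cell-like cells). Over all genes 0.962% of pairs were higher with the antibody in WT mice and 1.68% in Cd40-/- Control.

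The genes whose class profile was most like each of the 10 were ranked by Pearson's r of log2 (CPM + 10) over 50 class and library sums and 12223 genes. The sums share libraries and depth, so no p is given. For Ccne2 they were Espl1 (0.933), Cenpk (0.933) and Nuf2 (0.930), and for Ccne1 Lrr1 (0.917), Nuf2 (0.912) and Diaph3 (0.912). Ccne1 did not reach 20 CPM in any sum, a level that the compared genes had to reach in at least 1. For Cdkn2a the first was Cdkn2b (0.963), its neighbour on the chromosome, and for Ccnd3 it was Rag2 (0.918). The profile of Ccnd1 was most like Adm (0.899) and that of Cdkn1b most like Mbnl1 (0.904). Ccnd2 (Tmem158, 0.807, itself a marker of the early Aire lineage gate), Cdkn1c (Cldn7, 0.865) and Myc (Dctd, 0.756) had weaker matches.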

How the data were processed

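Thymic epithelial cells of 4 pools of mice were measured by droplet-based single-cell RNA-seq. Per the labels and file headers the authors cleaned reads with Fastp and counted them on mm10 with Cell Ranger (5.0.1 in the headers, 5.1 in the submitters' notes), and deposited raw UMI counts per gene and cell for each library. Kept were cells with 200 genes or more whose mitochondrial share was no higher than 25%, and genes seen in more than 5 cells. Classes were gated on marker scores, with limits set after the distributions were seen. UMIs were summed per class and library (Python 3.11.15, scanpy 1.11.5; edgeR 4.0.16 for TMM), and 10 CPM were added on the log2 scale. The median depth was 6086 to 7621.5 UMIs per cell, and intervals cover counting error only. Doublets were not removed, since Scrublet called 0, 1, 3 and 3 cells. The genes, the lists and the rule for named genes (list genes with the largest ratios, and the 3 genes most alike in profile) were chosen with earlier results of these data known. Gene positions are from the GENCODE annotation of GRCm38, the build of the files. The scripts were tested on simulated data. The gene most like Cdkn1a in its class profile is not reported here.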

Additional observations from a re-analysis of the deposited data

Results flagged for a closer look

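Of 40 gene and class pairs with at least 50 UMIs in each pair of libraries compared, 21 had a RANKL-Ab level on opposite sides of its Control in WT and in Cd40-/- mice (52.5%, where 53.4% of all pairs did). In 5 of the 40 (12.5%, where 8.64% of all pairs did) both 95% counting intervals also left out 0. These 5 differences are given on the log2 scale of CPM + 10 and, with 1 library per condition, were not tested. For Ccnd2 in progenitor-like cells the antibody ratio was 0.40 in WT and -0.22 in Cd40-/- mice, a difference of -0.62, and in progenitor-marker Ccl21a-high cells it was 0.63 and -0.89, a difference of -1.52. For Ccnd2 in cTEC-like cells the ratios were -0.38 and 0.29, a difference of 0.66. Ccnd1 in Mgp/Gpx3-low CCL21+ mTEC-like cells had 0.17 and -0.41, a difference of -0.58. Cdkn1c in tuft-like cells had 1.86 and -2.21, a difference of -4.06, with 30 UMIs in Cd40-/- RANKL-Ab and 71.5% of the WT-RANKL-Ab UMIs in 17 cells.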

How the results depend on the processing

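No paired analysis was possible because each condition has 1 library, and for the same reason no replicate could be left out. No direction was reversed among the results under the 13 alternatives. The number of pairs of the 10 genes past the fold moved by over 1.5 times as follows. In Cd40-/- Control against WT-Control it was 10, and 6 under TMM scaling, 4 with stricter gates and 4 without cells that had a T cell marker UMI. In WT-RANKL-Ab against WT-Control it was 12, and 6 with stricter gates and 7 without such cells. In Cd40-/- RANKL-Ab it was 6 and 2 against Cd40-/- Control and 8 and 4 against WT-RANKL-Ab without such cells, and 5 against WT-RANKL-Ab without the top 5% of Scrublet scores. Fewer classes were left with stricter gates (9 and 12 in the comparisons with WT-Control) and without cells with a T cell marker UMI (9, 12, 5 and 5), whereas TMM scaling and the Scrublet limit left the 14 and 8 classes as they were. The counts of list genes past the fold moved from 45 to 85 in Cd40-/- Control, from 27 to 44 with the antibody in WT mice and from 6 to 17 with the antibody in Cd40-/- mice when 1 CPM was added, and to 20 in the last with stricter gates. Ccnd2 of Mgp/Gpx3-low cells was past the fold in 13 of 13 alternatives in both Cd40-/- RANKL-Ab comparisons (-1.77 to -1.34 and -1.55 to -1.34), and Cdkn1b of progenitor-like cells in 10 of 13 (0.85 to 1.13). Cdkn1b of Cd40-/- Control was above WT-Control in every class under every alternative (lowest 0.39, under TMM scaling). Leaving out the shared barcodes and leaving out the gate on muscle genes were chosen after the data were seen. Outside cycling, T cell-like and nurse cTEC-like cells Ccne1 and Ccne2 had few UMIs, which limits their comparison between conditions, and the spread between mice is not measured in these pools.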

Other observations

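Cells with muscle genes were set apart after their values were seen and were given no name. In 15 cells of WT-Control and 18 of WT-RANKL-Ab, 1444 and 3256 Cdkn1c UMIs were counted, of which 97.3% and 99.2% lay in cells with at least 20 Cdkn1c UMIs per 10000. In WT-RANKL-Ab these cells held 44.9% of the library's Cdkn1c UMIs and 0.511% of all its UMIs. Cells that met no gate had a Cdkn2a level of 152, 79.5, 85.6 and 16.6 CPM in the libraries of WT-Control, WT-RANKL-Ab and the Cd40-/- mice (Control, then RANKL-Ab). In the first 3 this was below the level of microfold-like cells, and in the WT libraries above that of tuft-like cells.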
